A study of Mus musculus with 10 samples.

Results

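Transcripts of 9 genes whose products attract, sustain or repel nerve fibres in skin, or receive these signals, were followed in mouse cheek tissue: the ligand genes Bdnf, Ntf3, Ntf5, Gdnf, Artn and Sema3a, and the receptor genes Ngfr, Ntrk2 and Gfra1. They were taken by symbol from the deposited table, which lists 18994 genes. All 9 of 9 were found in it, and all 9 passed the filter on low counts that 15250 genes passed. C57BL/6 mice aged 6 to 8 weeks had their cheek shaved 3 days before an intradermal injection of 5 µL into the right cheek, and cheek tissue was taken 4 hours after it. The injection held 1 µg of MMP9 (the gelatinase matrix metalloproteinase 9) in 5 mice and vehicle alone in 5 mice, and each library is 1 mouse. What the vehicle contained, and whether the mice were male or female, is not given in the sources used.

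Neurotrophins are small secreted proteins that keep nerve fibres alive and steer their branching. They are made as longer proforms, which furin-like convertases cut inside the cell and plasmin or some metalloproteinases can cut outside it. BDNF (gene Bdnf) and neurotrophin 4 (gene Ntf5) bind the receptor kinase TrkB, encoded by Ntrk2, neurotrophin 3 (gene Ntf3) binds mainly TrkC, and all of them bind the shared receptor p75, encoded by Ngfr. GDNF (gene Gdnf) and artemin (gene Artn) signal through the kinase Ret with a GFRα co-receptor, which for GDNF is GFRα1 (gene Gfra1) and for artemin GFRα3. Semaphorin 3A (gene Sema3a) repels sensory fibres through neuropilin 1 and plexins, and in skin it is counted as the opponent of the growth factors. The cell bodies of the sensory nerves lie in ganglia outside the skin, so tissue RNA holds the skin's own transcripts and those of Schwann cells, and little from the neurons.

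Each library held 17121541 to 19443099 estimated counts in all. Markers of the labelled tissue were present: the basal keratinocyte gene Krt5 stood at 1482 to 3088 TPM. Of 17 sensory neuron markers measured, 7 passed the filter, and the summed TPM of all 17 was 20.5 to 36.7 in vehicle and 27.6 to 33.5 in MMP9. Stmn2, Tubb3 and Uchl1, genes of neurons in general, made up most of it, with means of 11.1, 5.60 and 5.46 TPM. Nppb, Isl1 and Trpv1, which also passed the filter, had means of 2.9, 2.49 and 0.685 TPM. The nociceptor sodium channel genes Scn9a and Scn10a did not exceed 0.020 and 0.030 TPM, while Calca and Tac1 reached 1.27 and 2.01 TPM at most. Skeletal muscle, which also makes neurotrophins and GDNF, was well represented, with a summed TPM of 21090 to 39580 over 10 muscle genes in vehicle and 21390 to 39540 in MMP9. Some libraries stood apart. In MMP9 replicate 4, ribosomal protein genes held 12.6% of the counts against 6.37% to 7.21% in the other 9, and its TMM factor, the scaling that sets most genes level between libraries, was 0.843 against 0.993 to 1.05. In vehicle replicate 2 and MMP9 replicate 1, the summed TPM of 15 hair shaft and inner root sheath genes was 10.2 and 15.4, against 497 to 6735 in the other 8.

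Sema3a was the member that differed most between the groups, and no member passed the test over all genes. Its mean was 1.40-fold higher 4 hours after MMP9, with a 95% interval from 1.14 to 1.72 that takes no account of the number of genes tested. The neurotrophin genes Bdnf, Ntf3 and Ntf5, the GDNF family genes Gdnf and Artn, and the receptor genes Ngfr, Ntrk2 and Gfra1 all had intervals that included no change. Of the 9 members, 0 were called by edgeR's quasi-likelihood test at a Benjamini-Hochberg adjusted p of 0.05, as were 0 of all 15250 tested genes (0%), with a lowest adjusted p of 0.981. At an unadjusted p under 0.05 there was 1 member of 9, Sema3a, where the share over all tested genes was 3.19%, and for higher values in MMP9 alone it was 2.07%. The median log2 fold change of the 9 members was 0.00033, beside 0.01 for all tested genes, and 5 of 9 values were positive, beside 53.7% of all genes. In bulk tissue, fewer cells of a type and less RNA per cell cannot be told apart.

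**Figure D1:**
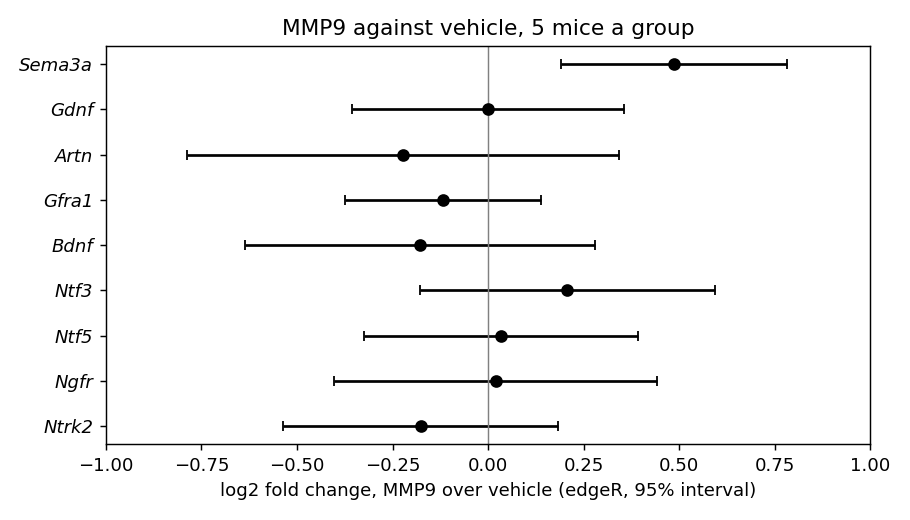
Log2 fold change of each gene, MMP9 over vehicle (points), with its 95% interval (bars) from edgeR, 5 mice a group; the vertical line marks no change. The interval of Sema3a runs from 0.19 to 0.78 and the other 8 cross 0.

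Read per length, as TPM, the receptor genes were the most abundant members and Bdnf and Artn the least. Mean levels over the 10 libraries, with the SD over libraries, were 18.8 ± 5.29 TPM for Ngfr, 13.3 ± 3.20 TPM for Ntrk2 and 10.9 ± 2.12 TPM for Gfra1. The neurotrophin genes Ntf3 and Ntf5 followed at 9.55 ± 1.16 and 7.54 ± 1.12 TPM. Gdnf stood at 4.43 ± 1.09 TPM and Sema3a at 4.11 ± 1.20 TPM. Bdnf stood at 1.48 ± 0.394 TPM and Artn at 0.915 ± 0.279 TPM.

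Not every step in this order exceeded the spread. Ntf3 lay above Ntf5 in 10 of 10 libraries, and the same held for Ntf5 over Gdnf, Sema3a over Bdnf and Bdnf over Artn. Gdnf lay above Sema3a in 5 of 10 libraries, and the count was uneven between the groups: 4 of 5 vehicle libraries, with means of 4.50 and 3.46 TPM, and 1 of 5 MMP9 libraries, with means of 4.37 and 4.77 TPM. The difference in order between the groups was not tested. Ngfr exceeded Ntrk2 in 8 of 10 libraries (3 of 5 in vehicle and 5 of 5 in MMP9), Ntrk2 exceeded Gfra1 in 7 of 10 and Gfra1 exceeded Ntf3 in 7 of 10, with means whose SDs overlap. Within the whole table, the mean TPM of Ngfr lay at percentile 66.9 and that of Artn at percentile 25.1.

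**Figure D2:**
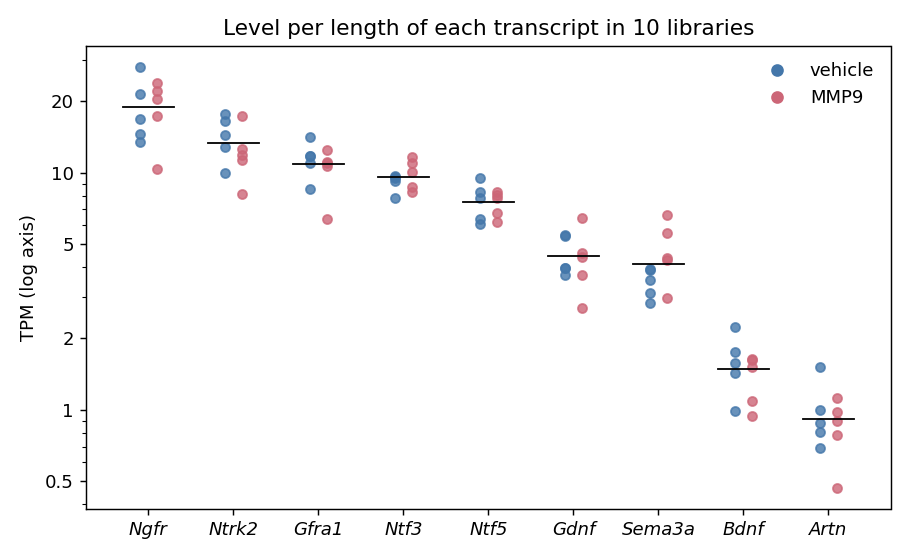
TPM of each gene (log axis) in the 10 libraries, vehicle in blue and MMP9 in red, with a line at the mean over all libraries. The genes run from Ngfr at a mean of 18.8 TPM down to Artn at 0.915 TPM, and the lowest point of 6 of the 9 genes belongs to MMP9 replicate 4.

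Sema3a (Entrez gene 20346), the gene of the repellent factor, lies on chromosome 5 in the GENCODE annotation of GRCm38. In TMM-scaled CPM (reads of a gene relative to the scaled library total), the vehicle libraries held 13.3, 12.2, 10.9, 10.2 and 13.7 CPM, in the order of their replicate numbers. The MMP9 libraries held 21.2, 14.5, 18.1, 15.5 and 15.1 CPM. Each of the 5 MMP9 libraries was higher than each of the 5 vehicle libraries, by a narrow margin between vehicle replicate 5 and MMP9 replicate 2, and MMP9 replicates 1 and 3 stood highest. The groups did not overlap in either direction for 0.564% of the tested genes.

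Sema3a had a vehicle mean of 12.1 ± 1.52 CPM and an MMP9 mean of 16.9 ± 2.80 CPM (SD, n = 5), a log2 fold change of 0.49 ± 0.13 (SE). The difference exceeded the SD of either group. The unadjusted p in edgeR was 0.00398, place 24 among 15250 genes, and the edgeR adjusted p was 0.981. It therefore did not pass, and Sema3a is given as a value and not as a change.

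The separation of the Sema3a groups depended on how MMP9 replicate 4 was scaled. On the authors' TPM the vehicle libraries held 3.89, 3.52, 3.12, 2.83 and 3.92 and the MMP9 libraries 6.66, 4.37, 5.55, 2.97 and 4.29. MMP9 replicate 4 then lay among the vehicle libraries, and 4 of 5 MMP9 libraries exceeded every vehicle library. As CPM of total counts without TMM factors, it held 13.1 CPM against a vehicle maximum of 14.1 CPM, and as CPM of counts outside the ribosomal protein genes 15.0 against 15.2 CPM. With limma on log2(TPM + 1) the log2 fold change was 0.34 with an unadjusted p of 0.0734, and without MMP9 replicate 4 the edgeR value was 0.51. Without MMP9 replicate 1, which was low in hair genes and highest in Sema3a, it was 0.39, and without both libraries low in hair genes it was again 0.39.

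**Figure D3:**
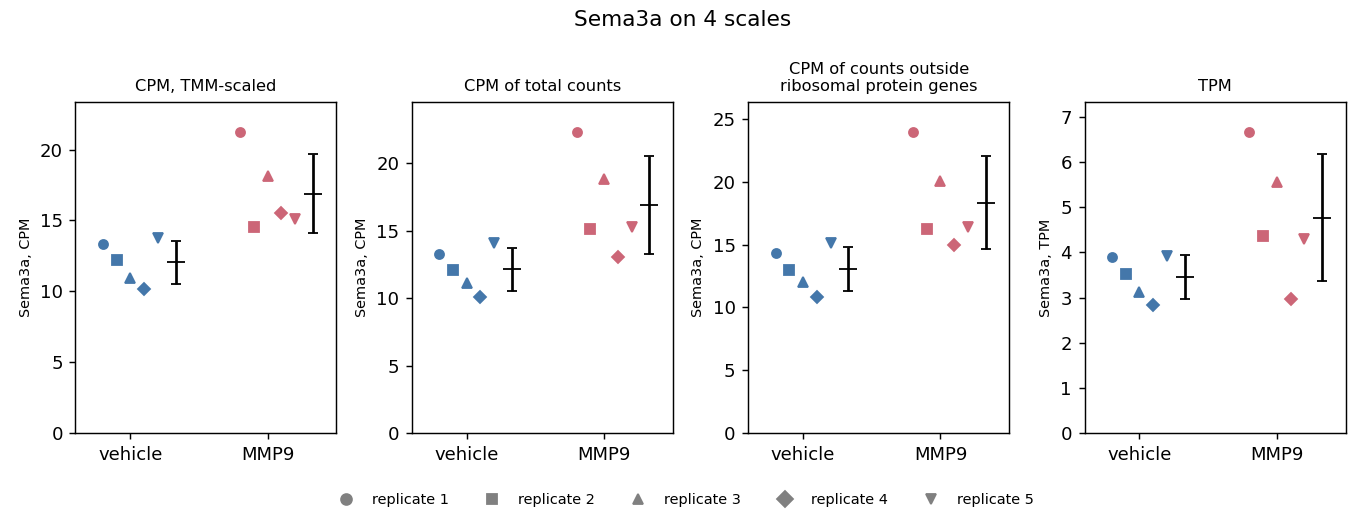
Sema3a in each mouse on 4 scales: TMM-scaled CPM, CPM of total counts, CPM of counts outside ribosomal protein genes, and TPM; symbols mark replicate numbers, and bars give the mean and SD of a group. On the first scale the lowest MMP9 library (14.5 CPM) is above the highest vehicle library (13.7 CPM), while on the other 3 MMP9 replicate 4 falls below the highest vehicle library.

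The receptor genes of semaphorin 3A had group means that differed by less than the SD of either group. Nrp1, which encodes neuropilin 1, the binding subunit, had a vehicle mean of 62.8 ± 12.8 CPM and an MMP9 mean of 63.7 ± 14.8 CPM (SD, n = 5), a log2 fold change of 0.02 ± 0.18 (SE). The plexin genes Plxna1, Plxna2, Plxna3 and Plxna4, whose products carry the signal, had log2 fold changes of -0.11, -0.04, 0.02 and 0.03. In the list of class 3 semaphorins and their receptors, 0 of 20 tested genes were called by edgeR, as were 0% of all tested genes. Of the 20, 13 had a positive log2 fold change, with a median of 0.02 and a range from -0.30 to 0.40. The genes with the smallest p in that list were Sema3e, Sema3d and Sema3g, the genes of other class 3 semaphorins, with log2 fold changes of -0.19 ± 0.09, 0.26 ± 0.14 and -0.30 ± 0.17 (SE). Sema3a itself stood at a lower level per length than 6 of 6 other class 3 semaphorin genes, whose mean TPM ran from 8.11 for Sema3g to 51.2 for Sema3f.

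Among the neurotrophin genes, Bdnf (Entrez gene 12064, chromosome 2) had 4.14, 3.77, 5.38, 2.42 and 3.31 CPM in vehicle and 3.63, 3.69, 3.45, 3.40 and 2.62 CPM in MMP9. The vehicle libraries enclosed all MMP9 libraries, with vehicle replicate 3 highest and vehicle replicate 4 lowest. The means were 3.80 ± 1.09 and 3.36 ± 0.428 CPM (SD, n = 5), and the log2 fold change was -0.18 ± 0.21 (SE), with an adjusted p of 0.981 in edgeR. It was -0.02 without vehicle replicate 3 and -0.32 without vehicle replicate 4. Bdnf rested on 44 to 98 estimated counts per library, for which counting error alone is 15.1% to 10.1% of the value. In GENCODE, 14.4% of its exonic bases overlap exons of Gm45346, an antisense gene on the opposite strand, and the strand of the counting is not stated, so reads of the pair cannot be told apart.

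Ntf3 (Entrez gene 18205, chromosome 6) had 7.72, 7.21, 7.57, 7.54 and 6.01 CPM in vehicle and 8.08, 8.59, 6.15, 11.9 and 6.94 CPM in MMP9. In 3 of 5 MMP9 libraries it was above all vehicle libraries, and the other two lay within the vehicle range. The vehicle libraries were close together, with a coefficient of variation of 9.64%, against 26.6% in MMP9. The log2 fold change was 0.21 ± 0.18 (SE), with an adjusted p of 0.981 in edgeR, and it was 0.04 without MMP9 replicate 4, the library with the raised share of ribosomal protein transcripts. Ntrk3, the gene of its receptor TrkC, had a vehicle mean of 3.78 ± 0.813 CPM and an MMP9 mean of 4.88 ± 0.929 CPM (SD, n = 5), a log2 fold change of 0.37 ± 0.19 (SE), with an adjusted p of 0.981 in edgeR.

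Ntf5 (Entrez gene 78405, chromosome 7), the neurotrophin 4 gene, had 9.36, 9.67, 11.0, 7.71 and 7.06 CPM in vehicle and 8.70, 9.30, 8.74, 11.9 and 7.27 CPM in MMP9. The groups overlapped almost completely, and the highest value was again that of MMP9 replicate 4. Its log2 fold change was 0.03 ± 0.16 (SE), with an adjusted p of 0.992 in edgeR. The sign was not stable, and the value was -0.08 without MMP9 replicate 4. On TPM, MMP9 replicate 4 was not the highest library for either gene, at 10.1 TPM for Ntf3 and 6.78 TPM for Ntf5.

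The neurotrophin receptor genes among the members, Ngfr and Ntrk2, varied broadly between mice, and their group means differed by less than the SD of either group. Ngfr (Entrez gene 18053, chromosome 11), the p75 gene, had 30.1, 56.4, 44.0, 27.9 and 33.4 CPM in vehicle and 41.5, 33.4, 45.7, 31.9 and 41.9 CPM in MMP9. All MMP9 libraries lay inside the vehicle range, whose top was vehicle replicate 2. The means were 38.3 ± 11.8 and 38.9 ± 5.94 CPM (SD, n = 5), and the log2 fold change was 0.02 ± 0.19 (SE), with an adjusted p of 0.997 in edgeR. It was 0.20 without vehicle replicate 2 and -0.09 without vehicle replicate 4, so no direction can be given.

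Ntrk2 (Entrez gene 18212, chromosome 13), the TrkB gene, had 63.2, 43.1, 55.4, 72.7 and 73.8 CPM in vehicle and 45.0, 48.6, 71.0, 53.3 and 54.8 CPM in MMP9. The ranges overlapped, and the vehicle libraries held both the highest and the lowest value. The means were 61.6 ± 12.8 and 54.5 ± 9.96 CPM (SD, n = 5), and the log2 fold change was -0.18 ± 0.16 (SE), with an adjusted p of 0.981 in edgeR. Ntrk2 gives rise to full-length TrkB and to truncated forms without the kinase, 7 protein-coding transcripts in GENCODE in all, and the gene-level counts do not separate them. The ratio of Ngfr to Ntrk2 within a library, on TPM, ran from 0.812 in vehicle replicate 4 to 2.80 in vehicle replicate 2, with means of 1.45 ± 0.825 in vehicle and 1.54 ± 0.263 in MMP9 (SD, n = 5).

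**Figure D4:**
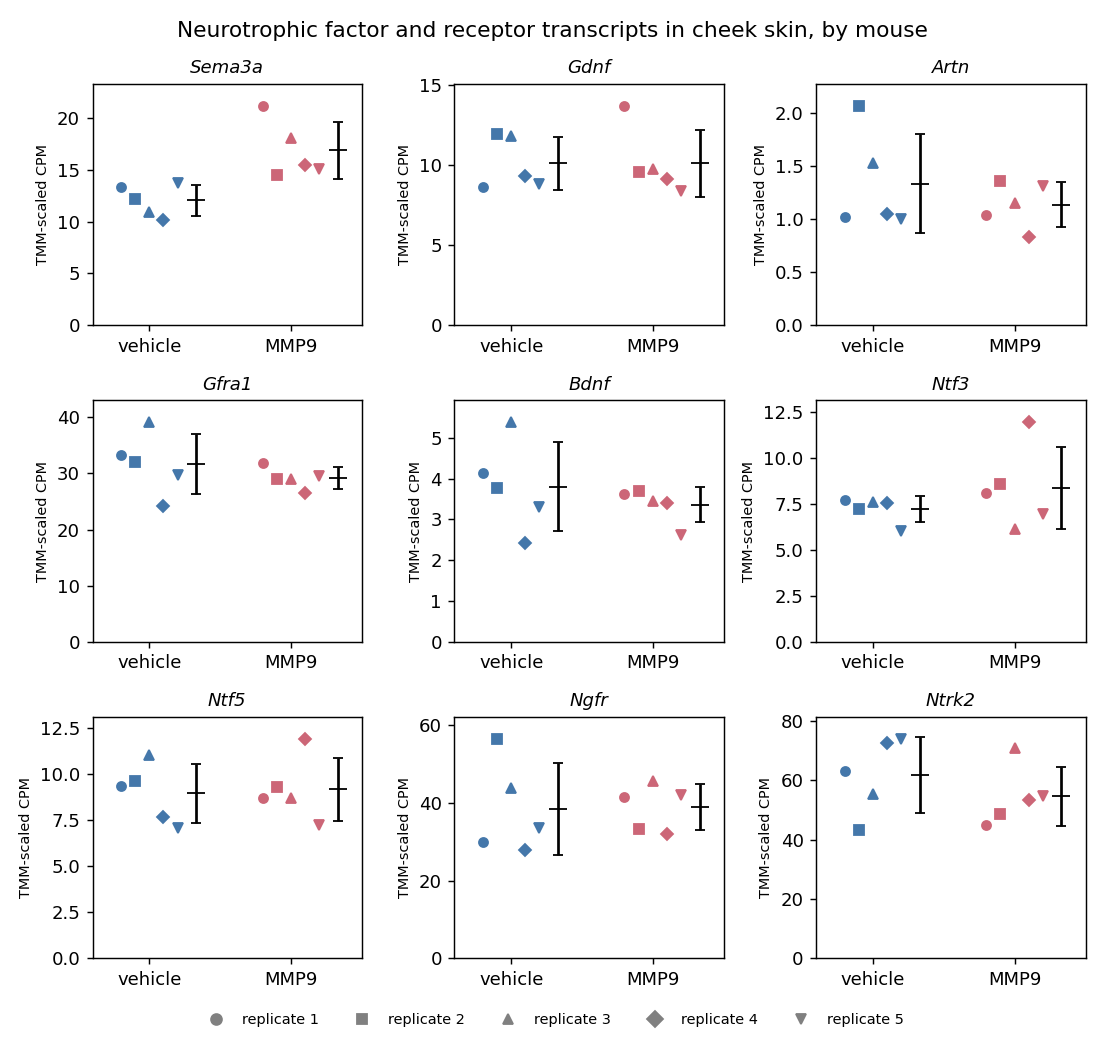
TMM-scaled CPM of the 9 genes in each mouse (symbols mark replicate numbers, axes start at 0), with the mean and SD of each group in black. Sema3a is the gene whose MMP9 points all lie above its vehicle points; for Ngfr and Bdnf the MMP9 points lie inside the vehicle range.

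Of the GDNF family, Gdnf (Entrez gene 14573, chromosome 15) had 8.62, 12.0, 11.9, 9.30 and 8.82 CPM in vehicle and 13.7, 9.55, 9.74, 9.15 and 8.36 CPM in MMP9. MMP9 replicate 1 was the highest library and MMP9 replicate 5 the lowest, so the MMP9 group enclosed the vehicle group. Both means were 10.1 CPM, with SDs of 1.66 and 2.09 (n = 5), and the log2 fold change was 0.00033 ± 0.16 (SE), with an adjusted p of 1.00 in edgeR. Its 95% interval ran from -0.36 to 0.36, which for this gene taken alone bounds a change at 1.28-fold in either direction. The value was -0.14 without MMP9 replicate 1.

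Gfra1 (Entrez gene 14585, chromosome 19), the GDNF co-receptor gene, had 33.2, 32.0, 39.1, 24.2 and 29.8 CPM in vehicle and 31.9, 29.0, 29.0, 26.5 and 29.5 CPM in MMP9. The MMP9 libraries were close together, with a coefficient of variation of 6.50%, and lay within the vehicle range. The log2 fold change was -0.12 ± 0.12 (SE), with an adjusted p of 0.981 in edgeR, the narrowest interval among the members, from -0.38 to 0.14. The log2 fold change was -0.03 without vehicle replicate 3 and -0.22 without vehicle replicate 4, the same libraries that moved Bdnf. In GENCODE, 7.60% of the exonic bases of Gfra1 overlap the antisense gene Gm16277 on the opposite strand. Gfra1 and Bdnf were both highest in vehicle replicate 3 and lowest in vehicle replicate 4.

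Artn (Entrez gene 11876, chromosome 4), the artemin gene, had 1.02, 2.08, 1.54, 1.05 and 1.00 CPM in vehicle and 1.04, 1.36, 1.15, 0.831 and 1.31 CPM in MMP9. The highest value was that of vehicle replicate 2 and the lowest that of MMP9 replicate 4, and the groups overlapped. The log2 fold change was -0.22 ± 0.26 (SE), with an adjusted p of 0.981 in edgeR, and it was -0.0085 without vehicle replicate 2. Artn rested on 12 to 38 estimated counts per library, for which counting error alone is 28.9% to 16.2% of the value, and its 95% interval was the widest among the members, from -0.79 to 0.34.

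The other genes of these pathways were read from 6 lists with 96 tested genes, of which 0 were called by edgeR and 2 (2.08%) had an unadjusted p under 0.05, beside 3.19% of all tested genes. Both belong to the receptors of the GDNF family. Ret, the signalling kinase that GDNF and artemin share, had a vehicle mean of 15.0 ± 4.04 CPM and an MMP9 mean of 11.1 ± 1.04 CPM (SD, n = 5), a log2 fold change of -0.43 ± 0.18 (SE), with an adjusted p of 0.981 in edgeR. Gfra4, the co-receptor gene of persephin, had 2.14 ± 0.587 and 3.00 ± 0.419 CPM, a log2 fold change of 0.48 ± 0.20 (SE), with an adjusted p of 0.981 in edgeR. In the list of other receptors 0 of 14 tested genes were called by edgeR and 8 of 14 were positive, with a median log2 fold change of 0.06. Gfra3, the artemin co-receptor gene, had a log2 fold change of -0.18 ± 0.25 (SE), and Sort1, which encodes the proneurotrophin receptor sortilin, had -0.07 ± 0.11 (SE).

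Of the other ligand genes, 3 were tested and 0 were called by edgeR, and 3 of 3 had a positive log2 fold change. Nrtn, the neurturin gene, was far above Gdnf and Artn per length, at 85.7 TPM over all libraries, and its log2 fold change was 0.02 ± 0.18 (SE). Gdf15 had 0.526 ± 0.130 and 0.773 ± 0.280 CPM, a log2 fold change of 0.55 ± 0.30 (SE), with an adjusted p of 0.981 in edgeR. It rested on 121 estimated counts over all libraries. Pspn, the persephin gene, had 44.0 estimated counts over all libraries and was below the filter. Among genes of Trk, p75 and Ret signalling adaptors, 0 of 22 were called by edgeR and 7 of 22 had a positive log2 fold change. Their median log2 fold change was -0.05, with a range from -0.16 to 0.22. The smallest p in that list belonged to Ripk2, Traf6 and Ptpn11, with log2 fold changes of 0.22 ± 0.11, -0.16 ± 0.10 and -0.11 ± 0.09 (SE).

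Genes of proteases that cut proneurotrophins, and of their partners, had a median log2 fold change of 0.08. Of 13 tested genes, 0 were called by edgeR and 10 were positive. Furin, the gene of the convertase inside the cell, had 106 ± 14.5 and 93.1 ± 14.7 CPM, a log2 fold change of -0.19 ± 0.13 (SE). Plau, the urokinase gene, and Serpini1, the neuroserpin gene, had log2 fold changes of 0.20 ± 0.15 and 0.42 ± 0.33 (SE). Of 24 other nerve growth and guidance factor genes, 0 were called by edgeR and 15 had a positive log2 fold change, with a median of 0.05. Igf1 and Mdk were among the genes with the smallest p there, with log2 fold changes of 0.42 ± 0.24 and 0.38 ± 0.26 (SE).

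Libraries low in hair genes also sat at the ends of the range for Gdnf and Ntrk2. Vehicle replicate 2 and MMP9 replicate 1 held the 2 highest Gdnf values, 12.0 and 13.7 CPM, though vehicle replicate 3, which had the most hair transcripts, followed at 11.9 CPM. The same libraries held the 2 lowest Ntrk2 values, 43.1 and 45.0 CPM, followed by MMP9 replicate 2 at 48.6 CPM. The 2 libraries come from different groups. The libraries highest in Gdnf were also the lowest in summed TPM of 8 adipocyte genes. These sums were 1392 in MMP9 replicate 1, 1494 in vehicle replicate 3 and 1915 in vehicle replicate 2, against 2559 to 3157 elsewhere. For Ntrk2, vehicle replicate 3 held 55.4 CPM, inside the range of the other libraries. The parts of hair follicle and fat content in these values were not tested.

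Cell types that carry these genes were also present to varying degrees. The summed TPM of 20 Schwann cell and nerve genes, a source of Ngfr and Gfra1 transcripts, ran from 828 to 1028 in vehicle and from 493 to 1006 in MMP9. Of the 20, 2 had a positive log2 fold change, with a median of -0.13. The sum of 493 was that of MMP9 replicate 4, the library with the low TMM factor, and MMP9 replicate 5 followed at 668. MMP9 replicate 4 also gave the lowest MMP9 sums of the fibroblast and dermal papilla genes below. The summed TPM of 8 basal keratinocyte genes ran from 5861 to 10010 in vehicle and from 5519 to 8631 in MMP9, with 1 of 8 positive. The 10 fibroblast genes summed to 3095 to 6121 TPM in vehicle and 4612 to 7243 TPM in MMP9, and 10 of 10 were positive, with a median of 0.16. Dermal papilla genes, whose cells sit at the base of the follicle, summed to 181 to 269 TPM in vehicle and 173 to 364 TPM in MMP9. Of these, 7 of 13 were positive. The highest sum was in MMP9 replicate 1, also the library highest in Sema3a, but Crabp1 alone had a mean of 141 TPM. The median over these genes of log2 CPM less the vehicle mean was 0.14 in MMP9 replicate 1. It was 0.12 in MMP9 replicate 3 and 0.11 in vehicle replicate 3. The lists whose medians lay farthest from 0 were those of hair and mast cells. For the 15 hair shaft and inner root sheath genes 0 of 15 were positive, with a median log2 fold change of -1.28 and sums of 10.2 to 6735 TPM in vehicle and 15.4 to 2153 TPM in MMP9. For the 8 mast cell genes 6 of 8 were positive, with a median of 0.48. Their sums were 133 to 666 TPM in vehicle and 416 to 658 TPM in MMP9. The medians were -0.12 for 9 endothelial genes, -0.11 for 10 macrophage genes, 0.06 for 8 adipocyte genes, -0.05 for 10 skeletal muscle genes and 0.01 for 10 smooth muscle and pericyte genes. None of the markers of these cell types was called by edgeR, and their part in the Sema3a values was not tested.

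**Figure D5:**
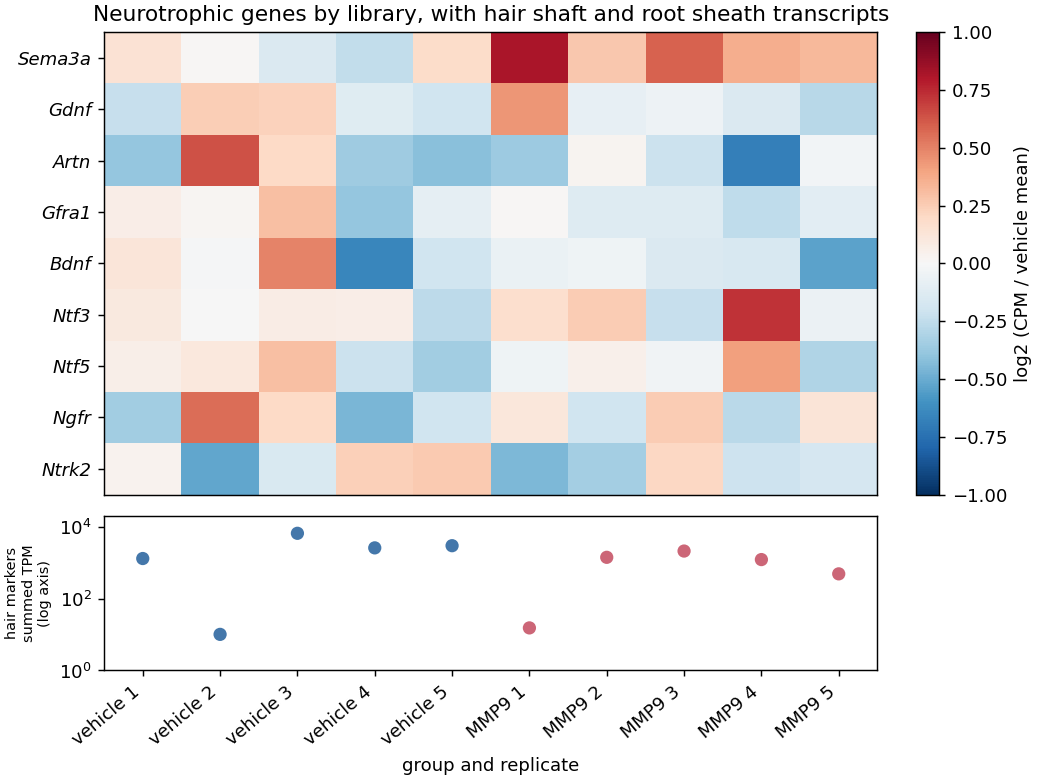
Upper panel: log2 of each gene's CPM over its vehicle mean, by library (red higher, blue lower). Lower panel: summed TPM of 15 hair shaft and inner root sheath genes (log axis), 10.2 in vehicle replicate 2 and 15.4 in MMP9 replicate 1 against 497 to 6735 elsewhere; Sema3a is above its vehicle mean in all 5 MMP9 libraries.

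For each member, genes with the most similar pattern of log2 CPM over the 10 libraries were sought among tested genes with a mean of at least 1 CPM. Being the best of 14145 candidates, they are given as a description, and they share libraries and depth with the member. For Sema3a the most similar was Shfl (Pearson r = 0.93, Spearman rho = 0.915, n = 10), which had a log2 fold change of 0.29 ± 0.10 (SE), with an adjusted p of 0.981 in edgeR. For Bdnf they were Tgm5 (r = 0.909, rho = 0.939) and Pim3 (r = 0.905, rho = 0.915). For Ntf3 they were Tmem29 (r = 0.946, rho = 0.939) and Rpp25l (r = 0.944, rho = 0.806), and for Ntf5 they were Nxn (r = 0.94, rho = 0.927) and Sbsn (r = 0.927, rho = 0.891). For Gdnf they were Sh3bgrl2 (r = 0.942, rho = 0.891) and Dnase1l3 (r = 0.939, rho = 0.794). For Artn they were Vars2 (r = 0.95, rho = 0.915) and Pak4 (r = 0.931, rho = 0.782), and for Gfra1 they were Plekha1 (r = 0.95, rho = 0.903) and Rlim (r = 0.918, rho = 0.83). For Ngfr they were Irak2 (r = 0.926, rho = 0.915) and Pgap3 (r = 0.918, rho = 0.903), and for Ntrk2 they were Gfpt2 (r = 0.954, rho = 0.927) and Tubb6 (r = 0.942, rho = 0.903).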

How the data were processed

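The mRNA of cheek skin was sequenced in 5 vehicle and 5 MMP9 mice, with single-end reads of 50 bases on a DNBSeq instrument after oligo(dT) selection, per the labels' protocols. The authors deposited, per the file headers, an estimated read count, a TPM and an FPKM for each gene and library. The deposited estimated counts need not be whole (60.8% of values are not), and the deposited TPM values are scaled by transcript length and by their own sum. The deposited FPKM values and the authors' group means were not used. The submitters' processing notes name HISAT and GRCm39. No source used here names the quantification program, annotation, strand setting or filters. The GENCODE annotation, of GRCm38, was used for chromosomes and exon overlaps only, so no coordinates are printed.

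After rounding, the estimated counts went into edgeR 4.0.16 (R 4.3.3): filterByExpr by group, TMM factors, a quasi-likelihood fit with treatment as the only term, and Benjamini-Hochberg adjustment over all 15250 tested genes, which hold 99.95% of the counts. Intervals are at the 95% level, and standard errors are derived from the F statistic. The test was checked on simulated counts, where it recovered 8 of 50 genes changed 1.5-fold, 36 of 50 changed 2-fold and 49 of 50 changed 4-fold. Of its 152 calls there, 9 were false. The simulation also changed 50 genes 8-fold, and it drew each gene independently, without shifts shared by the genes of a library. With 152 calls there and 0 in the data, an adjusted p of 0.05 was easier to reach in the simulation. The recoveries therefore do not give the power of the comparison in these mice. Alternatives were DESeq2 1.42.0, no filter, a minimum mean of 1 CPM, RLE factors, upper-quartile factors, limma 3.58.1 (voom, and log2 TPM with pseudocounts of 1 and 0.1), the mouse number as a block, and leaving out libraries. Total counts without TMM factors and leaving out ribosomal protein genes were added after seeing the data.

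The members and gene lists were chosen with earlier results of these data known. All members are named, with the 2 genes most like each and up to 3 genes of each list with the smallest p. Not every gene named by this rule is reported here. Nrp1, the plexin genes, Ntrk3, Gfra3, Sort1 and Pspn, and Sema3f as the end of a range, were added for their roles after their values were seen. The marker genes served to check the tissue. Counting errors are Poisson and cover counting error only.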

Additional observations from a re-analysis of the deposited data

Results flagged for a closer look

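In 2 of 18 groups of 5 libraries, the highest or lowest library stood far from the others by Dixon's test, whose critical value is 0.71 for 5 libraries. Chance gives about 1 in 20. Bdnf was low in MMP9 replicate 5, at 2.62 CPM against 3.40 to 3.69 CPM in the other MMP9 libraries, and without that library its log2 fold change was -0.10. Gdnf was high in MMP9 replicate 1, at 13.7 CPM against 8.36 to 9.74 CPM, and without it the log2 fold change was -0.14.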

How the results depend on the processing

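Over 22 alternatives no member was called, and 170 of 198 member values kept their sign. Genes called over the whole table stayed at 0 except under DESeq2, which called 1, not a member. DESeq2, run without the filter on low counts, had 620 of 18945 genes at an unadjusted p under 0.05, against 487 of 15250 in edgeR. Sema3a kept its sign in 22 of 22, with log2 fold changes from 0.34 to 0.54, unadjusted p from 0.0014 to 0.0813, under 0.05 in 20 of 22, and adjusted p from 0.885 to 1.00. Bdnf, Ntf3, Ntrk2 and Gfra1 also kept their signs. Gdnf, whose value is 0.00033, turned sign in 14 of 22: -0.0084 with RLE factors, -0.0087 without the filter, -0.0096 with DESeq2, -0.0012 with voom, -0.058 and -0.076 on log2 TPM with pseudocounts of 1 and 0.1, -0.0090 with the replicate block, -0.069 without vehicle replicate 2 and MMP9 replicate 1, -0.0051 on total counts and -0.0086 without ribosomal protein genes. Ntf5 and Ngfr turned on log2 TPM, to -0.024 and -0.0062 (pseudocount 1) and to -0.025 and -0.0075 (pseudocount 0.1). Artn turned to 0.025 without vehicle replicate 2 and MMP9 replicate 1. Leaving out single libraries gave -0.138 to 0.068 for Gdnf, -0.078 to 0.119 for Ntf5 and -0.090 to 0.200 for Ngfr. The causes were not tested.

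The mouse numbers share no stated origin between groups. Deviations of same-numbered libraries correlated from -0.242 to 0.455 and not every library correlated best with its own number, so they were not taken as pairs. With the replicate block 0 genes were called and 554 had an unadjusted p under 0.05, and the Sema3a value was 0.48. Depth limits Artn and Bdnf most.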
